A study of Mus musculus with 6 samples.

Results

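Keratins are the intermediate filament proteins of epithelial cells. A filament forms only when an acidic (type I) and a basic (type II) keratin pair, and the pair that a cell makes differs between epithelia. *Krt8* and *Krt18* are the classic pair of simple, single-layered epithelia such as renal tubules, *Krt7* and *Krt19* are known from ducts, and *Krt5*, *Krt14* and *Krt15* from the basal layer of stratified epithelia. Keratin levels in tubule cells are known to change with injury and dilatation.

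The 10 epithelial keratin genes *Krt5*, *Krt7*, *Krt8*, *Krt14*, *Krt15*, *Krt18*, *Krt19*, *Krt20*, *Krt23* and *Krt80* were read in RNA of mouse kidneys with polycystic disease. They were taken by gene symbol, and all 10 were found among the 23276 gene symbols of the deposited table, in 15 of its 54721 transcript rows. Of the 10, 6 are type I and 4 are type II keratins.

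The study sequenced total kidney RNA of 6 mice, which the labels put at postnatal day 22. In 3 mice (*Pkd1* F/RC SKO) KspCre, a Cre recombinase active in renal tubule epithelium, acted on a floxed *Pkd1* allele, while the other *Pkd1* allele carried the germline hypomorphic RC mutation. The other 3 mice (*Pkd1* F/RC DKO) had the same Cre and *Pkd1* alleles and floxed miR17~92 alleles on both chromosomes (F/F). All 6 kidneys therefore carried KspCre and *Pkd1* F/RC, and no kidney was wild type for *Pkd1*. Cells outside the reach of KspCre kept the floxed alleles unrecombined, and the extent of recombination was not measured here.

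Each transcript has 1 mean abundance over all 6 kidneys, in CPM (read counts scaled to a common library size) on a log2 scale. The table gives no value of a single kidney and, of the groups, only the authors' own comparison, which was not used, so SKO and DKO kidneys were not compared here, no spread between mice can be given, and every level below is the authors' mean over both genotypes. The depth of the libraries is unknown from the table. In RNA of a whole kidney, fewer cells of a type and less RNA per cell cannot be told apart.

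The cluster floxed in the DKO mice encodes 6 miRNAs on chromosome 14 of GRCm38 (the assembly also known as mm10), between 115043684 and 115044496 on the forward strand. Their mature sequences from RefSeq are shown because the seed, bases 2 to 8 and printed in capitals, sets which transcripts they can pair with.

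miR-17-5p: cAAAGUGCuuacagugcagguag
miR-20a-5p: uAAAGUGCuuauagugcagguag
miR-18a-5p: uAAGGUGCaucuagugcagauag
miR-19a-3p: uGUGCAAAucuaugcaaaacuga
miR-19b-3p: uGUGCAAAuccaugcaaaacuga
miR-92a-3p: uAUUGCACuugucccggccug

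These 6 miRNAs share 4 seeds. The DNA letters that pair with them are GCACTTT for miR-17-5p and miR-20a-5p, GCACCTT for miR-18a-5p, TTTGCAC for miR-19a-3p and miR-19b-3p, and GTGCAAT for miR-92a-3p. None of these 7-base matches was found in the 3′-UTR of any of the 10 keratins. Over 18286 genes with a 3′-UTR of at least 20 bases, the match to miR-17-5p and miR-20a-5p was present in 10.6%, that to miR-18a-5p in 6.89%, that to the miR-19 pair in 9.63% and that to miR-92a-3p in 5.77%, and at least 1 of the 4 matches in 25.5%. Inside the RefSeq spans the keratin 3′-UTRs were short, with a median of 226 bases against 738 bases over all these genes. They ranged from 65 bases in *Krt18* to 1600 bases in *Krt80*. The whole GENCODE 3′-UTR of *Krt7* is longer, at 2648 bases against 141 inside the span, and held no match either. Absence of these letters says nothing of other kinds of site.

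All 10 keratins were detected at or above 1 CPM, in each of their 15 rows. Of all gene symbols in the table, 55.9% reached 1 CPM in their highest row. *Krt7*, *Krt8*, *Krt18* and *Krt19* were the abundant members, with 18.0 to 78.6 CPM in their highest rows. *Krt5*, *Krt14*, *Krt15*, *Krt20*, *Krt23* and *Krt80* were lower, from 1.76 CPM for *Krt14* to 12.1 CPM for *Krt80* in their highest rows.

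*Krt7*, a type II keratin of ducts and of the urothelium that lines the renal pelvis, was listed in 3 rows. Its RefSeq mRNA had a mean of 76.8 CPM, and the transcripts that the authors assembled from the reads had 78.6 and 78.2 CPM. The highest row was 1.02 times the RefSeq row, and near-equal rows of this kind may count the same reads. *Krt7* lies on chromosome 15 of GRCm38, forward strand, from 101412403 to 101427806 in RefSeq, and has 9 exons.

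*Krt8*, the type II keratin of simple epithelia, had 1 row with a mean of 63.8 CPM. It lies on the reverse strand of chromosome 15, from 101996711 to 102004342. *Krt18*, its type I partner, had 1 row with a mean of 39.4 CPM. Although the other type I members lie on chromosome 11, *Krt18* lies on chromosome 15, forward strand, from 102028216 to 102032026, and 23873 bases separate it from *Krt8*.

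*Krt19*, the smallest type I keratin of the group at 403 residues, had 1 row with a mean of 18.0 CPM. It lies on the reverse strand of chromosome 11, from 100140810 to 100145926. *Krt15* follows at a distance of 4860 bases on the same strand, from 100131759 to 100135949, and had a mean of 4.46 CPM.

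*Krt80*, a type II keratin with a broad epithelial distribution, was the member whose rows differed most. Its RefSeq mRNA had a mean of 7.03 CPM, and the 2 assembled transcripts had 12.1 and 11.9 CPM, 1.72 times the RefSeq row at the most. The exons of the assembled transcripts were not analysed here, so the stretch behind this difference is not named. *Krt80* lies on the reverse strand of chromosome 15, from 101348315 to 101370162, and its RefSeq span overlaps *Gm35853* and *Mir1941* on the opposite strand. *Krt8* overlaps *Gm36026* and *Krt5* overlaps *Gm44323* in the same way, and since the strand setting of the counting is not given in the sources used here, reads of such partners may not be told apart.

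*Krt23*, a type I keratin known from stressed epithelia, had a RefSeq row with a mean of 2.88 CPM and an assembled row of 2.50 CPM. The remaining members had 1 row each. *Krt5*, the basal type II keratin, had a mean of 5.52 CPM, and *Krt14*, its usual type I partner in skin, had 1.76 CPM. *Krt20*, a type I keratin of the superficial urothelial cells, had 2.40 CPM. *Krt5* lies on the reverse strand of chromosome 15, from 101707069 to 101712905. *Krt14*, *Krt20* and *Krt23* lie on the reverse strand of chromosome 11, *Krt14* from 100203162 to 100207510, *Krt20* from 99428385 to 99438153 and *Krt23* from 99477973 to 99493120. With a threshold of 2 CPM in place of 1 CPM, *Krt14* alone would drop out and 9 members would remain.

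**Figure D1:**
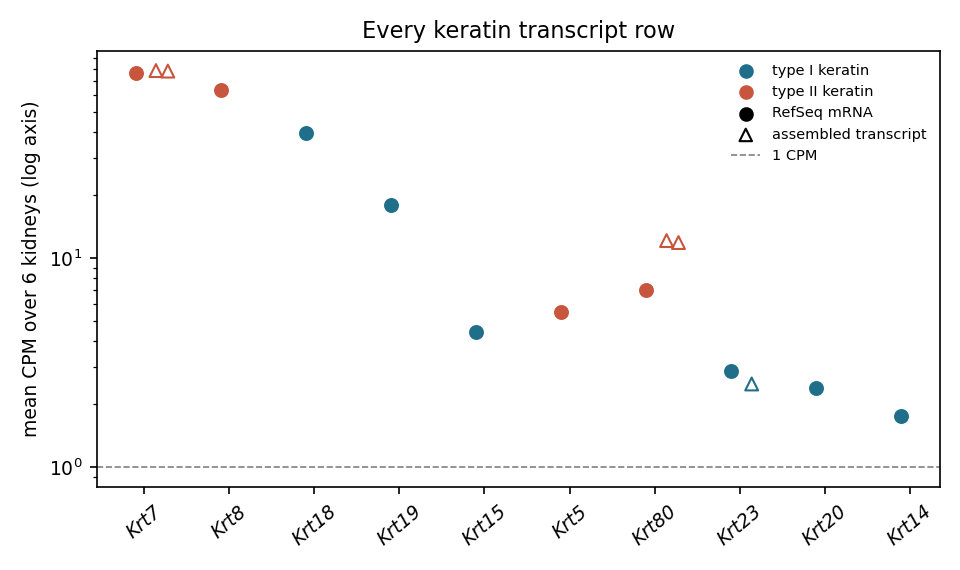
Mean CPM over the 6 kidneys (log axis) of each of the 15 keratin transcript rows, with RefSeq mRNAs as filled circles, assembled transcripts as open triangles and 1 CPM as a dashed line. All rows lie above 1 CPM, the 3 rows of *Krt7* nearly coincide at 76.8 to 78.6 CPM, and those of *Krt80* spread from 7.03 to 12.1 CPM.

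Longer transcripts give more reads, so the members were ranked per kilobase. For this the RefSeq row of each gene was used, since assembled rows carry no length here, with the length of the GENCODE exons inside the RefSeq span of the gene. On this scale the level was 48.4 CPM per kilobase for *Krt7*, 35.4 for *Krt8*, 28.1 for *Krt18* and 13.0 for *Krt19*. These 4 levels lay above the median of 4.22 CPM per kilobase of the 12436 genes with a length and at least 1 CPM. *Krt7* exceeded 95.6% of these genes, *Krt8* 93.8%, *Krt18* 92.0% and *Krt19* 81.9%.

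The other 6 members lay under that median. The level per kilobase was 2.62 CPM for *Krt15*, 2.51 for *Krt5*, 2.29 for *Krt80*, 1.86 for *Krt23*, 1.24 for *Krt20* and 1.06 for *Krt14*. These correspond to positions from 34.3% for *Krt15* down to 13.3% for *Krt14* among the same genes. Together the 6 held 8.49% of the summed level per kilobase of the 10 keratins, while *Krt7*, *Krt8* and *Krt18* held 82.0%. From *Krt7* to *Krt14* the level per kilobase fell 45.7-fold, or 18.1-fold when the same RefSeq rows were divided by whole GENCODE lengths.

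**Figure D2:**
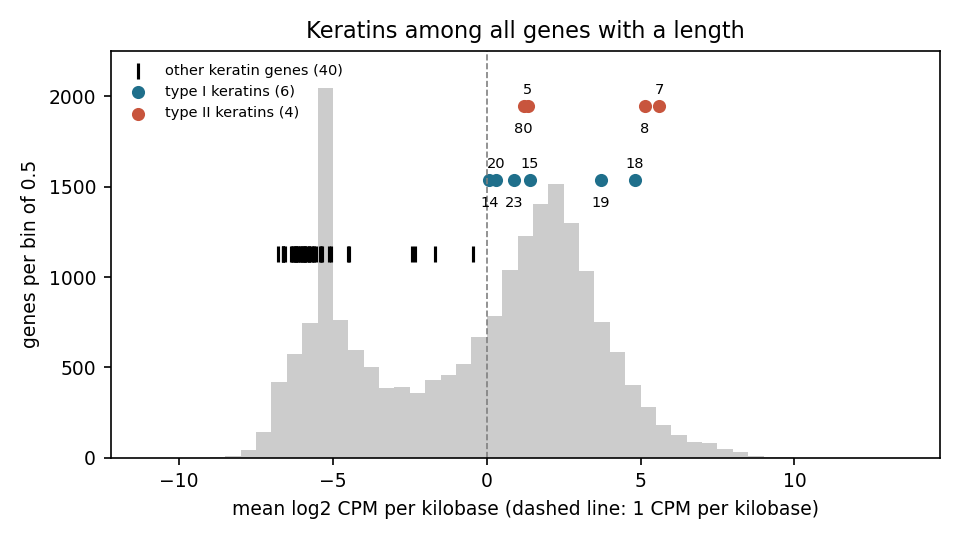
Histogram of the mean log2 CPM per kilobase of the genes with a length, in bins of 0.5, with the 10 keratins as coloured points (numbers are keratin names) and 40 other keratin genes as black ticks. *Krt7*, *Krt8*, *Krt18* and *Krt19* lie on the right flank of the expressed genes, the other 6 members near its left side, and all other keratin genes lie under 1 CPM per kilobase.

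The order of close neighbours is not resolved, because no spread between kidneys is at hand and the choice of length moves it. *Krt7* ranked first per kilobase of transcript and of coding sequence, at 56.0 CPM per coding kilobase against 43.4 for *Krt8* and 31.0 for *Krt18*. The GENCODE transcript of *Krt7* is 2508 bases longer than its part in the RefSeq span. With the whole of it *Krt7* came after both simple keratins, at 18.8 CPM per kilobase behind *Krt8* at 32.6 and *Krt18* at 27.4. That value divides the unchanged RefSeq row by the longer length. It is too low if reads of the added bases were not counted in that row, which is not known here. Likewise *Krt80*, with 1600 bases of 3′-UTR, rose from 2.29 CPM per kilobase of transcript to 5.18 per coding kilobase. *Krt15* had 3.26 and *Krt5* 3.17 per coding kilobase. The coding values divide the whole RefSeq row, 3′-UTR reads included, by coding bases alone, so they favour genes with a long 3′-UTR. *Krt19* stayed next below *Krt7*, *Krt8* and *Krt18*, and *Krt14* last, with each of these lengths.

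**Figure D3:**
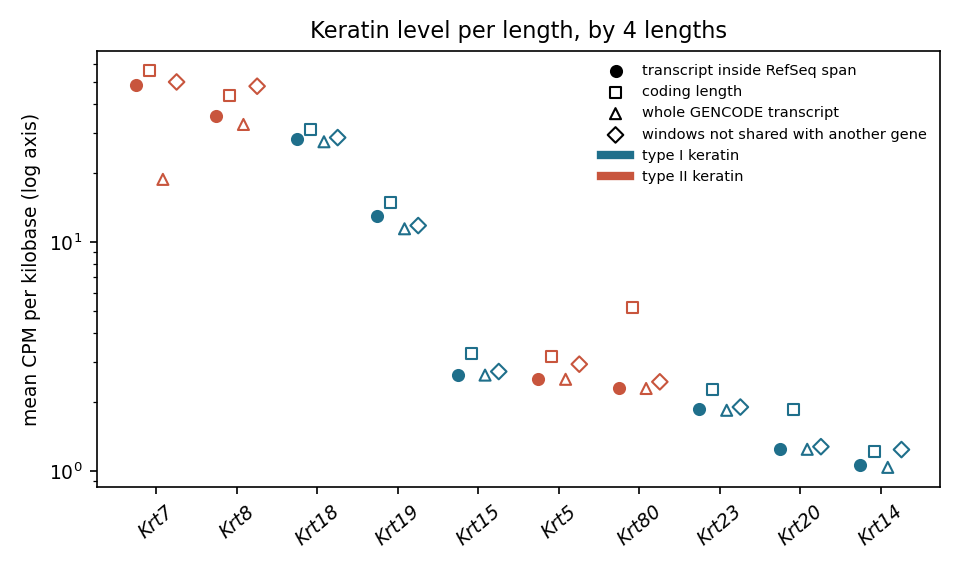
Mean CPM per kilobase (log axis) of the RefSeq row of each keratin with 4 measures of length: transcript inside the RefSeq span (filled circles), coding length (squares), whole GENCODE transcript (triangles) and windows of 51 bases not shared with another gene (diamonds). *Krt7* moves from 48.4 to 18.8 with the whole GENCODE transcript, and the abundant 4 stay apart from the low 6 with every length.

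Reads that fit several genes equally can be lost, since the authors discarded alignments of low mapping quality. The share of 51-base windows of each member's transcript (51 bases being the read length) that also occur in a GENCODE transcript of another gene was therefore counted. It was 29.7% in *Krt8*, where 510 of 562 shared windows were found in the pseudogene *Krt8-ps*. It was 13.8% in *Krt14*, shared mostly with *Krt16*, and 12.1% in *Krt5*, shared mostly with *Krt6a*. *Krt80* shared 4.94% of its windows, all with *Gm35853* on the opposite strand, whereas *Krt15* and *Krt18* shared under 1%. Since *Gm35853* overlaps *Krt80* at the same locus, its windows may reflect this overlap and not a second place of alignment. *Krt7*, *Krt19*, *Krt20* and *Krt23* shared none.

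Per kilobase of unshared windows, *Krt7* had 50.0 and *Krt8* 47.9 CPM per kilobase, with *Krt7* again cut at its RefSeq end. The levels of *Krt8*, *Krt14* and *Krt5* are the most uncertain on this account, and what the discarded reads would have added was not tested.

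Because filaments need both keratin types, the partners were set side by side. *Krt8* had 1.26 times the level per kilobase of *Krt18* and 2.72 times that of *Krt19*. *Krt7*, also type II, had 1.72 times the level per kilobase of *Krt18* and 3.72 times that of *Krt19*. With the same RefSeq rows divided by whole GENCODE lengths, these ratios of *Krt7* were 0.685 and 1.64, under the limit given above. *Krt18* and *Krt19* are both type I and so not partners, and *Krt18* had 2.16 times the level per kilobase of *Krt19*. Type II keratins held 64.9% of the summed level per kilobase of the 10 members and type I keratins 35.1%. The type II share was 66.4% per coding kilobase and 55.2% with whole GENCODE transcripts, so it stayed above that of type I with each. For the basal keratins, *Krt5* had 2.37 times the level per kilobase of *Krt14* and 0.958 times that of *Krt15*.

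The keratin family outside these members was at low levels. Of the 42 other keratin genes in the table, 37 had less than 0.1 CPM in their highest row, 17 sat at the lowest value in the table, 0.0263 CPM, and 1 reached 1 CPM. That gene was *Krt10*, a type I keratin of differentiating epidermis, with 1.53 CPM or 0.729 CPM per kilobase. *Krt4*, a type II keratin of moist stratified epithelia, had 0.664 CPM and *Krt17*, a type I keratin of stressed epithelium, 0.291 CPM. *Krt1*, the epidermal partner of *Krt10*, had 0.0483 CPM. Of the CPM summed over the highest row of all 52 keratin genes, without regard to length, the 10 members held 98.1%. The members were chosen with earlier results of these data known, so this share is a description only.

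The anchors of keratin filaments were mostly present. Of 17 desmosome and keratin anchor genes, 12 had at least 1 CPM, with a list median of 3.02 CPM per kilobase. *Pkp4*, a plakophilin relative at cell junctions, was highest at 25.7 CPM per kilobase, *Jup*, the gene for plakoglobin, had 19.5 and *Dsp*, the gene for desmoplakin that ties keratin filaments to the desmosome, 7.86. Of the desmosomal cadherins, *Dsg2* had 3.40 CPM per kilobase and *Dsc2* lay under the list median. Without regard to length, *Dsg2* and *Dsc2* had 19.6 and 6.61 CPM. *Dsg1a*, *Dsg3*, *Dsc1* and *Dsc3*, the cadherins of stratified epithelium, each had under 0.1 CPM. Among 16 genes of other intermediate filaments, 7 reached 1 CPM, and *Vim*, the mesenchymal filament gene, was highest at 23.1 CPM per kilobase, below *Krt7*, *Krt8* and *Krt18*.

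Markers of other epithelia were read beside the keratins, as *Krt5*, *Krt14*, *Krt15* and *Krt20* are known from layered epithelia. All 8 urothelial genes had at least 1 CPM, with a median of 4.23 CPM per kilobase. They ranged from 0.368 for *Trp63*, a factor of basal cells, to 24.0 for *Psca*, and the uroplakins, the plaque proteins of the urothelial surface, lay between 3.62 for *Upk3a* and 6.33 for *Upk1a*. *Krt5*, *Krt14*, *Krt15*, *Krt20*, *Krt23* and *Krt80* all lay between *Trp63* and *Upk3a* on this scale. Of the 6 genes of stratified skin found in the table, 3 reached 1 CPM. Per kilobase the 6 ran from 0.0101 for *Krt2*, which sat at the lowest value of 0.0263 CPM, to 0.951 for *Ivl*. On that scale they lay below every keratin of the group, with *Krt14* close at 1.06. Without regard to length, *Sbsn* at 2.55 and *Ivl* at 1.83 CPM lay above *Krt14* at 1.76, and *Sbsn* also above *Krt20* at 2.40. The share of the keratin signal that came from urothelium was not tested.

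The labelled tissue carried the markers of kidney. All 7 principal cell genes of the collecting duct reached 1 CPM, with a median of 29.2 CPM per kilobase and a range from 7.71 for *Avpr2* to 58.4 for *Hsd11b2*. *Krt7*, *Krt8*, *Krt18* and *Krt19*, at 13.0 to 48.4, fell within that range, and also within the ranges of proximal tubule, thick ascending limb, distal convoluted tubule, and fibroblasts and smooth muscle. The lists of thick ascending limb, intercalated cells and distal convoluted tubule had medians of 59.5, 13.4 and 13.4 CPM per kilobase. Those of proximal tubule, podocytes, endothelium, macrophages, and fibroblasts and smooth muscle had 63.3, 4.82, 14.8, 7.38 and 36.0. Which of these cells held the keratin RNA cannot be read from RNA of whole kidneys.

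**Figure D4:**
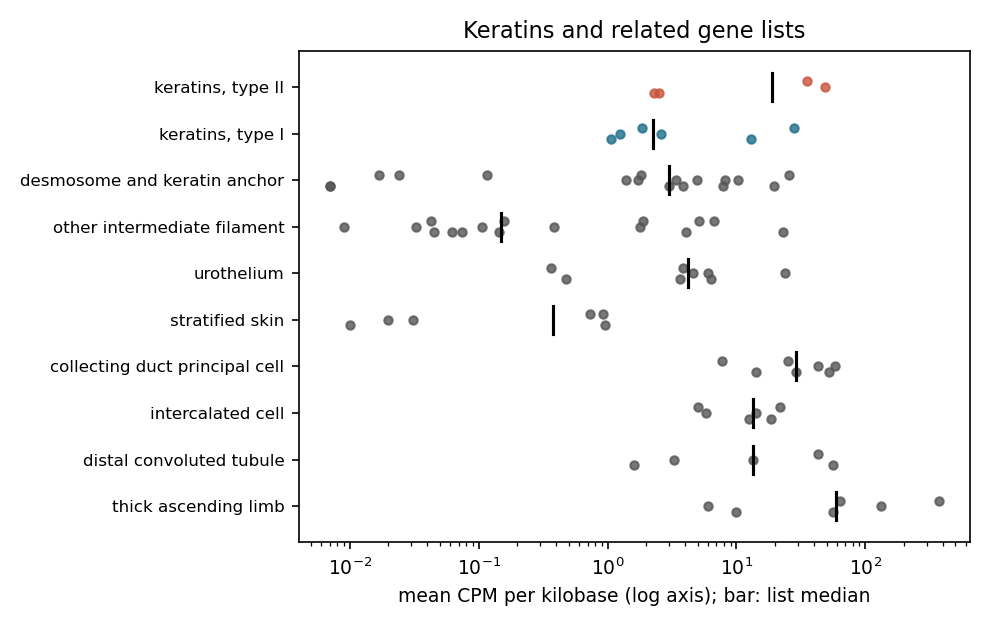
Mean CPM per kilobase (log axis) of each gene in 10 gene lists, with a black bar at the list median. The type II keratins split into *Krt7* and *Krt8* at 35.4 and above and *Krt5* and *Krt80* at 2.51 and 2.29, and the stratified skin genes all lie under 1 CPM per kilobase.

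Promoter sequence from RefSeq (GRCm38.p6) was read for *Krt5*, *Krt7*, *Krt8*, *Krt18*, *Krt20* and *Krt23*, 6 members whose promoter entry begins at the outer start of the gene. The entry of *Krt14* belongs to a start inside the gene and was left out. The 25 bases from 40 to 16 before the annotated start, where a TATA box would lie, are shown 5′ to 3′ on the strand of the gene, because a TATA-like run was present in some members and not in others. Capitals mark the letters ATAAAA, which were picked after the sequences had been seen.

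Krt7, chr15:101412363-101412387, forward strand: tgtgtgcgctcagcctccgccccgc
Krt8, chr15:102004358-102004382, reverse strand: agaggcccttttccctcccctgggg
Krt18, chr15:102028176-102028200, forward strand: ccctacctcctcccgcggcgatata
Krt5, chr15:101712921-101712945, reverse strand: cttctaaggggATAAAAggggacct
Krt23, chr11:99493136-99493160, reverse strand: gcaaagggcATAAAAccatctcaag
Krt20, chr11:99438169-99438193, reverse strand: ctcttgaactctATAAAAggtcatc

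On the gene's strand, ATAAAA was present in this window of *Krt5*, *Krt20* and *Krt23*, 3 of the 6 promoters, and in 1.72% of the 32851 promoters in the table. The overlapping letters TATAA were present in *Krt20* alone and in 3.52% of all promoters. Neither was present in the window of *Krt7*, *Krt8* or *Krt18*. The window of *Krt18* ends in the letters tata, so a match that runs past this edge would not be counted. With 6 sequences this is a description and no test was made of it.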

How the data were processed

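Total kidney RNA of 3 SKO and 3 DKO mice was sequenced from stranded libraries. Per the study's methods and the submitters' processing notes, the authors cut poor bases from the read ends, aligned to mm10 with TopHat2 2.0.12 and the iGenomes annotation, dropped alignments of mapping quality under 10, and used Cufflinks, featureCounts of Subread 1.4.6 and edgeR 3.2.4. The strand setting of the counting and the handling of reads that overlap several transcripts are not given in the sources used here. The deposited log2 values used here are the authors' mean log2 CPM of each transcript over all 6 kidneys, which sum to 1007270 CPM, and each was turned into CPM as 2 to that power. The file also holds 4 columns of the authors' own comparison of DKO with SKO (log2 fold change, likelihood ratio statistic, p-value and adjusted p-value), which were not used. A test on counts of single kidneys had been planned for this comparison and was not made, since the table has none. Depth and its precision are unknown.

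A gene was represented by its row with the highest CPM, and levels per kilobase by its highest RefSeq mRNA row. GENCODE M21 (GRCm38, the assembly of mm10) gave a length to 25962 of 27012 RefSeq mRNA rows, as exons inside the RefSeq gene span, and 19991 genes. Seeds were sought in 3′-UTRs inside the same span. The search for seeds, promoter letters and shared windows was added after the levels had been seen. The members and gene lists were chosen with earlier results of these data known. Named are the members, any other keratin gene of at least 1 CPM and the ends of each list, and *Krt4*, *Krt17*, *Krt1*, *Jup*, *Dsp*, *Upk3a*, *Upk1a* and the desmosomal cadherins were named after their values were seen. The choice of the highest row of each gene and the percentile were tested on simulated data, and the other steps over all genes were not. Python 3.11.15, numpy 2.4.6, pandas 2.3.3 and matplotlib 3.10.9 were used.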

Additional observations from a re-analysis of the deposited data

How the results depend on the processing

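The levels are means over 6 kidneys with no spread, so a change with the processing cannot be set against variation between mice. The number of members at or above 1 CPM was 10 with each choice of transcript row and with a threshold of 0.5 CPM, and 9 with 2 CPM. *Krt7* ranked first per kilobase with coding length, with the sum of its rows and with unshared windows. With whole GENCODE transcripts it ranked 3 of 10, where the added 3′ bases enlarge its length while the RefSeq row stays the same. The rank of 3 members changed with coding length, of 3 with whole GENCODE transcripts, of 4 with the sum of rows and of 2 with unshared windows. With the sum of rows, *Krt80* had 10.1 CPM per kilobase, next below *Krt19* at 13.0. The type II share of the summed level per kilobase, 64.9%, was 66.4% with coding length, 79.8% with the sum of rows (in which a read on several transcripts may count more than once), 64.4% over all keratin genes, 55.2% with whole GENCODE transcripts and 68.5% with unshared windows. The whole GENCODE lengths, the unshared windows and the search of whole GENCODE 3′-UTRs, which held no seed match either, were chosen after seeing the data. Leaving out single kidneys, DESeq2 and another filter on counts were planned for the comparison of DKO with SKO and were not run, because each needs values of single kidneys. No paired analysis was possible because the table holds no such values.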
